A study of Mus musculus with 11 samples.

Results

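CD4 and CD8 T cells that carry CD127 but not PD-1 were compared in the inflamed mouse kidney. CD127 is the alpha chain of the IL-7 receptor (gene Il7r) and PD-1 is an inhibitory receptor of stimulated T cells (gene Pdcd1), so the sort holds both lineages to one surface state. The comparison used the 3 libraries labelled CD4+CD127+PD-1- and the 3 labelled CD8+CD127+PD-1-, which are 6 of the 11 samples of the series. All cells came from WT mice that had received recombinant mouse MPO as immunogen. MPO is myeloperoxidase, an enzyme of neutrophil granules and a target of autoantibodies in vasculitis. Glomerulonephritis was then triggered with a little sheep anti-mouse basement membrane (BM) globulin, and kidney T cells were sorted 21 days later. Cells of 3 mice were pooled for each sort, so the spread between libraries is a spread between pools and not between animals. The labels give no strain, sex or age, and kidneys without glomerulonephritis were not analysed here. The other 5 samples are CD4+CD127-PD-1+ cells (2 libraries) and CD8+CD127-PD-1+ cells (3 libraries) from the same design, and they serve below as a second pair in which to read the same lineage difference.

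CD4 and CD8 T cells separate in the thymus. The transcription factor ThPOK (gene Zbtb7b) holds cells in the CD4 lineage, which recognises antigen on MHC class II, while Runx3 supports the CD8 lineage, which recognises antigen on MHC class I. CD4 cells act mainly through cytokines and surface ligands such as CD40 ligand, which gives help to B cells and dendritic cells, and divide into type 1, type 2, type 3 (IL-17-producing) and regulatory cells. CD8 cells act mainly by killing, with granzymes and perforin released from granules.

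The 6 libraries held 10.6 M to 14.5 M counts and 20514 to 21741 genes with a count. CD4 libraries averaged 11.3 ± 0.870 M and CD8 libraries 13.7 ± 1.07 M counts (SD, n = 3 each; two-sided exact permutation p = 0.1, the lowest value possible with 3 against 3 libraries). Mitochondrial ribosomal RNA took 29.4 ± 1.37% of counts in CD4 and 30.7 ± 1.82% in CD8 libraries (two-sided exact permutation p = 0.3). Levels are given as CPM, read counts scaled to one common library size, and a gene counts as called when its adjusted p from edgeR's quasi-likelihood test is under 0.05. Every log2 fold change is CD4 over CD8, so a positive value means a higher level in CD4 cells.

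Of 16365 tested genes, 452 (2.76%) were called higher and 271 (1.66%) lower in CD4 than in CD8 cells, together 723 (4.42%). Each count of called list members below is to be read beside these shares. More than 2-fold differences made up 305 of the higher (1.86% of tested genes) and 178 of the lower calls (1.09%). The median log2 fold change was -0.01 over all tested genes, 1.52 over the genes called higher and -1.34 over those called lower. The levels of the 3 CD4 libraries and the 3 CD8 libraries did not overlap for 3735 genes, 22.8% of those tested (11.9% higher and 10.9% lower in CD4). Libraries with the same replicate number deviated together, and a fit of the 6 libraries with the replicate number as a block called 966 genes higher and 741 lower, 703 of the 723 among them. Single libraries weighed on the totals: without CD4 replicate 3 the calls were 235 higher and 143 lower, without CD4 replicate 1 they were 255 and 140, and without CD8 replicate 1 they were 304 and 177.

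**Figure D1:**
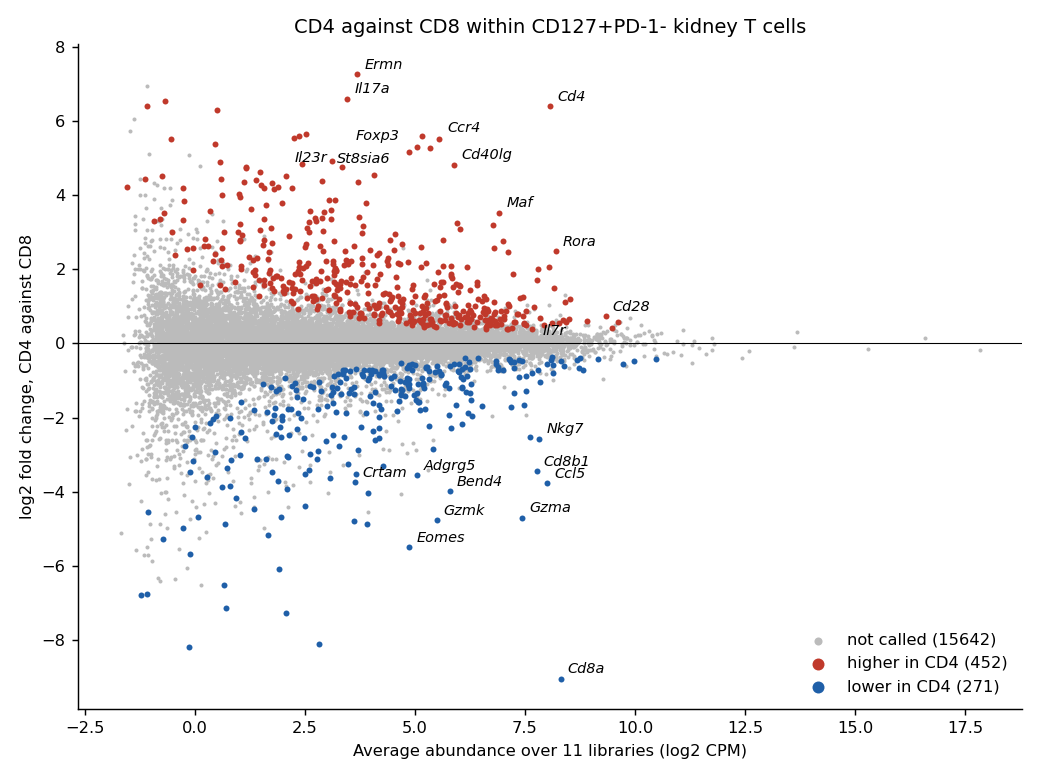
Each point is one of the 16365 tested genes, placed by its average abundance over the 11 libraries (log2 CPM, horizontal axis) and its log2 fold change of CD4 against CD8 CD127+PD-1- cells (vertical axis). Red points are the 452 genes called higher in CD4 and blue points the 271 called lower, and the sort genes Cd4 (6.40) and Cd8a (-9.03) lie far from 0 while Il7r lies at 0.07.

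The sort genes were read first as a check of the labels, since cells were chosen by their products. Cd4 (ENSMUSG00000023274, chromosome 6, 124864692 to 124888221, GRCm38) measured 536, 503 and 622 CPM in the CD4 libraries and 9.36, 6.23 and 4.02 CPM in the CD8 libraries. Cd8a (ENSMUSG00000053977, chromosome 6, 71373427 to 71379173) measured 1.82, 0.691 and 0.744 CPM in CD4 and 577, 493 and 656 CPM in CD8 cells. Both lineages were thus separated in each of the 6 libraries. The CD8 beta chain gene Cd8b1 (chromosome 6, 71322788 to 71337494) behaved differently from Cd8a: it measured 60.7, 20.7 and 30.1 CPM in the CD4 libraries against 415, 361 and 444 CPM in CD8 (log2 fold change -3.45, SE 0.40, adjusted p = 0.00054). In CD127-PD-1+ cells Cd8b1 averaged 3.87 CPM in CD4 and 350 CPM in CD8 (log2 fold change -6.50). The difference of these 2 contrasts was 3.05 on the log2 scale, which edgeR did not call (adjusted p = 0.313) and DESeq2 did (adjusted p = 0.0213). The CD127+PD-1- libraries also held RNA of other cell types. Plasmacytoid dendritic cell genes summed to 2818, 1445 and 1778 CPM in the CD4 libraries, and their part in the Cd8b1 level was not tested.

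The surface state was matched at the RNA level. Il7r (ENSMUSG00000003882, chromosome 15) measured 345, 355 and 455 CPM in CD4 and 352, 421 and 329 CPM in CD8 cells (0.07, SE 0.19, adjusted p = 0.901), with overlapping libraries. Pdcd1 (ENSMUSG00000026285, chromosome 1) stayed between 0.845 and 2.57 CPM in all 6 libraries (-0.24, SE 0.41, adjusted p = 0.83). Of 17 pan-T genes 1 was called, the costimulatory receptor Cd28, which was higher in CD4 cells (834 ± 194 against 502 ± 12.8 CPM, SD, n = 3 each; 0.73, SE 0.17, adjusted p = 0.0346). The Cd28 call was absent without CD4 replicate 1 or 3 or without any one of the CD8 libraries. With the block 4 pan-T genes were higher and 4 lower. The pan-T list summed to 3694, 3935 and 4311 CPM in CD4 and 3529, 3504 and 4191 CPM in CD8 libraries (two-sided exact permutation p = 0.5). The summed levels of the 2 groups overlapped, and the sum was higher in CD4 within each pair of same-numbered libraries.

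Among 17 transcription factors that set or maintain the CD4 and CD8 fates, 3 were higher and 2 lower in CD4 cells (5 and 4 with the block). Zbtb7b (ENSMUSG00000028042, chromosome 3, 89377644 to 89394776), which encodes ThPOK, measured 30.8, 32.2 and 44.0 CPM in CD4 against 5.59, 4.18 and 5.68 CPM in CD8 libraries (2.79, SE 0.25, adjusted p = 0.000107). Runx1, a Runx factor of T cell development, measured 396, 391.8 and 440 CPM in CD4 against 190, 176 and 202 CPM in CD8 libraries (1.11, SE 0.11, adjusted p = 0.000175). Gata3, which supports CD4 development and type 2 cells, was higher at 72.7 ± 7.02 against 34.9 ± 3.79 CPM (1.06, SE 0.13, adjusted p = 0.000833). For each of these 3 factors the lowest CD4 library lay above the highest CD8 library, as for 11.9% of all tested genes.

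Eomes (ENSMUSG00000032446, chromosome 9, 118478212 to 118486132), a T-box factor of memory and cytotoxic cells, showed the opposite order. It measured 0.829, 1.46 and 0.930 CPM in CD4 and 46.7, 44.4 and 57.2 CPM in CD8 libraries (-5.50, SE 0.39, adjusted p = 1.87e-05), so that the level in CD8 was 45.3 times that in CD4 cells. Myb, a factor of progenitor and stem-like T cells, was lower in CD4 cells at 15.6 ± 1.01 against 37.7 ± 1.15 CPM (-1.27, SE 0.21, adjusted p = 0.00522). Runx3 measured 72.9, 70.0 and 101 CPM in CD4 against 119, 102 and 155 CPM in CD8 libraries, without overlap, and was not called (-0.62, SE 0.20, adjusted p = 0.112). The type 1 factor Tbx21 (-0.36, adjusted p = 0.37) and the resting-cell factors Tcf7 (-0.14, adjusted p = 0.68) and Lef1 (-0.07, adjusted p = 0.93) were not called either.

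The CD4 and CD8 lineage lists hold known genes of each lineage, Cd4, Cd8a and Cd8b1 among them. Of 13 CD4 lineage genes 11 were called higher and 0 lower (median 2.10), against 2.76% higher over all tested genes. Of 16 CD8 lineage genes 0 were higher and 11 lower (median -2.22). Trat1, an adaptor of the T cell receptor complex, was higher at 52.2 ± 9.73 against 10.5 ± 1.86 CPM (2.31, SE 0.39, adjusted p = 0.00503). St8sia6, a sialyltransferase, measured 93.7, 121 and 46.3 CPM in CD4 against 2.83, 4.03 and 0.485 CPM in CD8 libraries (5.15, SE 0.71, adjusted p = 0.0017). The remaining CD4 list genes Tnfsf8 (0.76) and Tox (0.34) were not called.

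**Figure D2:**
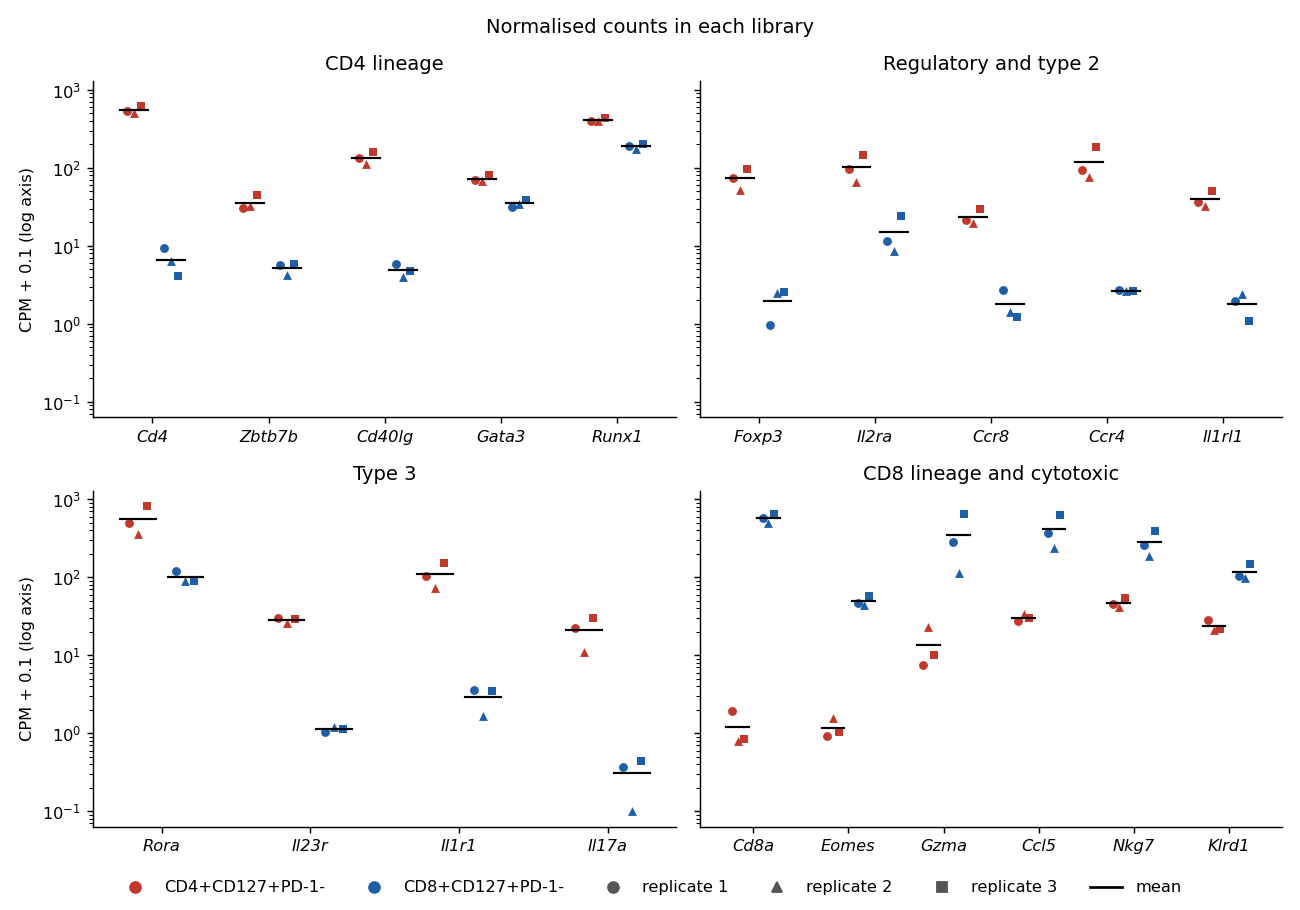
Each point is the normalised count of one gene in one library (CPM + 0.1 on a log axis) for CD4+CD127+PD-1- (red) and CD8+CD127+PD-1- cells (blue), with a different marker for each replicate number and a bar at the mean of 3 libraries. The genes drawn were picked from called genes, several of them named by a rule that requires no overlap, so their red and blue points lie apart by choice. Over all tested genes 22.8% did not overlap. The widest spread within a group is that of Gzma in CD8 libraries (114 to 656 CPM).

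Genes of T cell help were led by CD40 ligand. Cd40lg (ENSMUSG00000031132, chromosome X, 57212143 to 57224042), the ligand through which helper cells act on B cells and dendritic cells, measured 133, 111 and 159 CPM in CD4 and 5.73, 3.89 and 4.64 CPM in CD8 libraries. Its level was 28.2 times higher in CD4 cells (log2 fold change 4.82, SE 0.23, adjusted p = 1.41e-06). Of 18 tested genes for helper costimulation and B cell help, 9 were higher and 1 lower (median 0.74), and Ascl2 was below the count filter. Maf, a transcription factor of IL-4, IL-10 and IL-21 producing cells, measured 134, 113 and 152 CPM against 9.70, 14.6 and 10.4 CPM (3.52, SE 0.17, adjusted p = 1.41e-06). Icos, a costimulatory receptor, was higher at 449 ± 155 against 108 ± 16.5 CPM (2.05, SE 0.27, adjusted p = 0.00131). The cytokine Il21, which drives B cell maturation, was called at low levels of 2.03 ± 0.463 against 0.185 ± 0.143 CPM (3.39, SE 0.54, adjusted p = 0.00372).

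The follicle homing receptor Cxcr5 was the single gene of this list called lower in CD4 cells. It measured 2.82, 3.38 and 2.14 CPM in CD4 and 6.74, 10.9 and 11.1 CPM in CD8 libraries (-1.77, SE 0.32, adjusted p = 0.00838). Bcl6, the main factor of follicular helper cells, was not called (0.57, adjusted p = 0.17), nor was Pdcd1, against which the cells were sorted.

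Genes of regulatory T cells, which restrain other T cells, were higher in CD4 cells. Of 17 such genes 13 were called higher and 0 lower (median 2.21), and all 17 had a positive log2 fold change. Foxp3 (ENSMUSG00000039521, chromosome X, 7573644 to 7595245), the factor that defines regulatory T cells, measured 73.8, 51.2 and 96.2 CPM in CD4 and 0.876, 2.35 and 2.43 CPM in CD8 libraries. The fitted difference was 39.2-fold (log2 fold change 5.29, SE 0.33, adjusted p = 8.2e-06). In bulk RNA a larger share of such cells and more RNA per cell cannot be told apart, which holds for each gene group below as well.

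Surface molecules of regulatory cells were higher along with Foxp3. Lrrc32, which encodes the TGF-beta docking protein GARP, measured 13.0, 13.4 and 15.8 CPM in CD4 against 1.01, 1.47 and 1.04 CPM in CD8 libraries (3.58, SE 0.25, adjusted p = 1.87e-05). Il2ra, the IL-2 receptor alpha chain, measured 95.8, 65.7 and 144 CPM against 11.5, 8.43 and 24.3 CPM (2.78, SE 0.40, adjusted p = 0.00195). Ctla4, an inhibitory receptor, measured 288, 188 and 337 CPM against 61.1, 55.0 and 85.7 CPM (2.01, SE 0.28, adjusted p = 0.00187). In all 3 genes replicate 3 was the highest CD4 library. The transcription factor Ikzf2 (Helios) was higher at 224 ± 44.6 against 40.9 ± 7.69 CPM (2.45, SE 0.30, adjusted p = 0.000785), and the suppressive cytokine Il10 at 12.3 ± 5.27 against 1.36 ± 0.601 CPM (3.17, SE 0.47, adjusted p = 0.00237). Itgb8 (2.21, adjusted p = 0.092), Ebi3, Gpr83 and Tnfrsf9 were not called. With the block 15 of the 17 genes were higher.

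Type 2 genes, which belong to cells that make IL-4 and to tissue repair, were higher as a group. Of 9 tested genes 7 were called higher and 0 lower (median 3.78), while Il5 and Ptgdr2 were below the count filter. Ccr4 (ENSMUSG00000047898, chromosome 9, 114490316 to 114504916), a chemokine receptor of type 2 and regulatory cells, measured 92.8, 77.0 and 182 CPM in CD4 and 2.63, 2.49 and 2.56 CPM in CD8 libraries (5.51, SE 0.34, adjusted p = 7.73e-06). Il1rl1, the IL-33 receptor ST2, measured 36.5, 32.1 and 50.9 CPM against 1.89, 2.27 and 0.970 CPM (4.54, SE 0.35, adjusted p = 3.14e-05). Ccr8, a receptor of type 2 and tissue regulatory cells, measured 21.1, 19.7 and 29.2 CPM against 2.63, 1.32 and 1.11 CPM (3.78, SE 0.34, adjusted p = 0.000104). Replicate 3 was the highest CD4 library for each of the 3 receptors. Il4 measured 8.21, 12.52 and 4.93 CPM in CD4 libraries and 0.202, 0.293 and 0 CPM in CD8 libraries (5.64, SE 0.69, adjusted p = 0.00086). The growth factor Areg was higher at 16.5 ± 5.70 against 1.13 ± 0.405 CPM (3.86, SE 0.56, adjusted p = 0.00218). Il13 was not called (0.78, adjusted p = 0.66).

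Type 3 genes, those of IL-17-producing cells, showed the largest median of the lists, 4.02. Of 13 genes 11 were called higher and 0 lower in CD4 cells (12 with the block), and Il17f (2.16, adjusted p = 0.062) and Ahr (1.17, adjusted p = 0.083) were not called. The transcription factor Rora measured 500.1, 358 and 824 CPM against 120.1, 89.9 and 89.8 CPM (2.49, SE 0.33, adjusted p = 0.00126). Rora was highest in CD4 replicate 3 and lowest in CD4 replicate 2, and the 2 groups did not overlap, as for 11.9% of all tested genes in this direction.

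Receptors and cytokines of type 3 cells followed. Il23r (ENSMUSG00000049093, chromosome 6, 67422932 to 67491855), the receptor for IL-23, measured 29.8, 25.6 and 28.7 CPM in CD4 and 0.943, 1.10 and 1.04 CPM in CD8 libraries (4.76, SE 0.47, adjusted p = 0.0002). Il1r1, the receptor for IL-1, measured 103, 72.2 and 151 CPM against 3.44, 1.54 and 3.40 CPM (5.27, SE 0.64, adjusted p = 0.000798). Il17a (ENSMUSG00000025929, chromosome 1, 20730905 to 20734496), the signature cytokine, measured 22.3, 10.8 and 30.1 CPM against 0.269, 0 and 0.346 CPM (6.59, SE 1.09, adjusted p = 0.00791). The CD8 levels of Il17a rest on a handful of counts per library, so the size of its fold change is imprecise, and limma-voom did not call it (log2 fold change 6.85, adjusted p = 0.251). Il17re, a receptor chain for IL-17C, was higher at 14.0 ± 6.05 against 0.283 ± 0.151 CPM (5.60, SE 0.60, adjusted p = 0.000393). Il22, a cytokine that acts on epithelium, measured 7.46, 4.30 and 25.0 CPM against 0.269, 0.367 and 0.624 CPM (4.83, SE 0.89, adjusted p = 0.00908), with CD4 replicate 3 far above the other two. Ccr6, which guides type 3 and regulatory cells, was higher at 15.6 ± 7.46 against 1.59 ± 0.903 CPM (3.29, SE 0.49, adjusted p = 0.00262).

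The product of Rora binds DNA elements built on the letters AGGTCA. This half-site was searched on both strands in the 250 bases before the RefSeq start of each gene (GRCm38.p6), where 10 of the 11 called type 3 genes were matched and gave 15 windows. It occurred in 3 of 15 windows (20%), those of Ccr6, Il17a and Il23r, and in 14.0% of all 32851 promoter windows (4607). Il17a and Il23r are shown because they are the signature cytokine and receptor of the group. The sequences run 5′ to 3′ along the strand of the gene up to the base before its start, with the half-site (AGGTCA or its reverse complement TGACCT) in capitals.
Il17a (chr1:20730655-20730904, plus strand): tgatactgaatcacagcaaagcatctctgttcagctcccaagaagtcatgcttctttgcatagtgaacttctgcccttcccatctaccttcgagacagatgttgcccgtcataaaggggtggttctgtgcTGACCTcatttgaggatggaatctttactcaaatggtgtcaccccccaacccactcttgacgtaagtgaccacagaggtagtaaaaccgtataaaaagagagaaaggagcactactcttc
Il23r (chr6:67491856-67492105, minus strand): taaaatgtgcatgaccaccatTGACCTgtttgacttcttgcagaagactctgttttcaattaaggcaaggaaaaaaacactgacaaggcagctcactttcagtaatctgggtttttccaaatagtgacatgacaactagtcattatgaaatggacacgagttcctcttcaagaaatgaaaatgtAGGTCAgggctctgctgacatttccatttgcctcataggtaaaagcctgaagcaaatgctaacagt
The match begins 120 bases before the start in Il17a, and 229 and 66 bases before it in Il23r. The genes and the motif were picked with the expression values known, and the share in this group was close to that of all promoters.

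Among type 1 genes those called were higher in CD4 cells, while the list as a whole lay on both sides of 0. Of 13 genes 3 were called higher (against 2.76% over all tested genes) and 0 lower (median -0.02, with 6 above and 7 below 0), and with the block 3 were higher and 2 lower. Tnf, the inflammatory cytokine, measured 116, 75.0 and 111 CPM in CD4 against 36.3, 32.8 and 41.2 CPM in CD8 libraries (1.45, SE 0.16, adjusted p = 0.000417). Il18r1, a receptor chain for IL-18, was higher at 350.4 ± 93.1 against 178 ± 26.8 CPM (0.98, SE 0.20, adjusted p = 0.0164). Il12rb1, a receptor chain for IL-12 and IL-23, was higher at 21.1 ± 4.26 against 10.7 ± 1.63 CPM (0.97, SE 0.20, adjusted p = 0.0192). The Il18r1 call was absent without CD4 replicate 3 or CD8 replicate 3, and the Il12rb1 call without CD4 replicate 1 or 3 or CD8 replicate 1 or 2. Ifng, the type 1 cytokine, was not called (-0.20, adjusted p = 0.78), and neither were Cxcr3 (-0.17, adjusted p = 0.76) and Stat4 (-0.26, adjusted p = 0.22). Il18r1, Il1rl1 and Il1r1 lie in one cluster of IL-1 family receptor genes on chromosome 1 between 40225080 and 40500854, and all 3 were higher in CD4 cells.

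Cytotoxic effector genes went the other way. Of 24 genes 13 were called lower in CD4 cells, against 1.66% over all tested genes, and 1 was higher (median -1.68). With the block 16 were lower and 1 higher. Granzyme A (Gzma, ENSMUSG00000023132, chromosome 13, 113093825 to 113100981), a protease of killing granules, measured 7.46, 22.96 and 9.96 CPM in CD4 and 282, 114 and 656 CPM in CD8 libraries (-4.69, SE 0.66, adjusted p = 0.00185). Granzyme B (Gzmb) measured 36.9, 35.1 and 64.0 CPM against 214, 104 and 463 CPM (-2.52, SE 0.52, adjusted p = 0.0164). Perforin (Prf1), which opens the target cell membrane, measured 6.22, 6.60 and 2.88 CPM against 25.6, 23.97 and 31.8 CPM (-2.36, SE 0.29, adjusted p = 0.000876). No CD4 library reached the lowest CD8 library for any of the 3 genes. This held for 10.9% of all tested genes, and the rule by which Gzma was named required it. The CD8 libraries differed several-fold among themselves in both granzymes, with replicate 3 highest and replicate 2 lowest.

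Granzyme K (Gzmk, chromosome 13, 113171608 to 113225908), a granzyme of memory CD8 cells, measured 1.99, 1.38 and 2.42 CPM in CD4 against 49.8, 21.6 and 85.3 CPM in CD8 libraries (-4.77, SE 0.51, adjusted p = 0.000393). Esm1 (chromosome 13, 113209659 to 113218098), which encodes a secreted proteoglycan, lies inside the annotated span of Gzmk on the other strand. It measured 2.49, 0.845 and 2.61 CPM against 17.2, 8.80 and 41.2 CPM (-3.51, SE 0.64, adjusted p = 0.0086; 0.0717 for Esm1 with limma-voom, which did not call it) with the same order of libraries as Gzmk. The strand setting of the counting is not given in the sources used here, so reads of Esm1 and Gzmk cannot be told apart. Crtam, an adhesion receptor of cytotoxic cells, measured 1.33, 2.07 and 1.67 CPM against 22.9, 16.9 and 28.4 CPM (-3.74, SE 0.30, adjusted p = 4.97e-05). The granule protein gene Nkg7 measured 45.0, 41.9 and 54.4 CPM against 259, 189 and 393 CPM (-2.57, SE 0.25, adjusted p = 0.000175). In CD4 cells Cst7, an inhibitor of granule proteases, averaged 6.15 ± 0.356 against 24.5 ± 3.40 CPM (-1.99, SE 0.18, adjusted p = 0.000107).

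Chemokines released by cytotoxic cells were lower in CD4 cells with the granule genes. Ccl5 measured 27.3, 33.5 and 29.96 CPM in CD4 and 373, 239 and 626 CPM in CD8 libraries (-3.77, SE 0.40, adjusted p = 0.00037). Ccl4 (-1.80, SE 0.31, adjusted p = 0.00574) and Ccl3 (-1.70, SE 0.30, adjusted p = 0.00741), which also encode chemokines, were also lower. Srgn, the proteoglycan of secretory granules, was the cytotoxic list gene called higher in CD4 cells (345 ± 39.1 against 234 ± 34.8 CPM; 0.56, SE 0.12, adjusted p = 0.0217). That call was absent without CD4 replicate 1, CD4 replicate 3 or CD8 replicate 2. The death ligand Fasl (-0.44, adjusted p = 0.49) and Ifng were not called. CD8 replicate 3, the highest library for both granzymes, Gzmk and Ccl5, also had the highest sum of cell cycle genes, 2076 CPM against 573 to 858 CPM in the other 5 libraries, and the part of this in the cytotoxic result was not tested. Without that library 13 cytotoxic genes were lower and 1 higher.

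Runx3 and Runx1 bind the letters TGTGGT. In the same 250-base windows, where 9 of the 13 called cytotoxic genes were matched and gave 10 windows, TGTGGT or its reverse complement ACCACA occurred in 8 of 10 windows (80%), those of Ccl3, Cst7, Cx3cr1, Gzma, Gzmb, Gzmm, Nkg7 and Prf1. Over all 32851 promoter windows the share was 14.0% (4614). The T-box half-site AGGTGT occurred in 4 of the 10 windows (40%), against 11.8% of all windows (3887). It also occurred in 4 of 9 windows (44.4%) of called regulatory genes, while TGTGGT occurred in 1 of those 9 (11.1%), in 2 of 15 type 3 windows (13.3%) and in 1 of 9 type 2 windows (11.1%). The windows of Gzma, Nkg7, Cst7 and Cx3cr1 are shown because these genes differ in role (granzyme, granule protein, protease inhibitor and homing receptor) and share the match, which is in capitals.
Gzma (chr13:113100982-113101231, minus strand): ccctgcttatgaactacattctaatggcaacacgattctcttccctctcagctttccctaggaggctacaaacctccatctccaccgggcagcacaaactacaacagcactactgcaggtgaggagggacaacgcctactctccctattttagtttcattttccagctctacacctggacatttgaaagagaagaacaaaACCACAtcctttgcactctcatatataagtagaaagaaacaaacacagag
Nkg7 (chr7:43436888-43437137, plus strand): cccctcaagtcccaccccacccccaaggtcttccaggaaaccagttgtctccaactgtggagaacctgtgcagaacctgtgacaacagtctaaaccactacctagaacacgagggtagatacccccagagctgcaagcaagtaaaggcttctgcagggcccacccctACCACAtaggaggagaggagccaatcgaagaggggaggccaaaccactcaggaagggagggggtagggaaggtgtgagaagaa
Cst7 (chr2:150570165-150570414, plus strand): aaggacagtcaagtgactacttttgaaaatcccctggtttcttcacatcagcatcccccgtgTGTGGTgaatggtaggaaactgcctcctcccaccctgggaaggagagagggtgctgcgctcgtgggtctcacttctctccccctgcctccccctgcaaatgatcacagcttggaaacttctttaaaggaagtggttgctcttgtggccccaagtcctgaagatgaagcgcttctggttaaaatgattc
Cx3cr1 (chr9:120068297-120068546, minus strand): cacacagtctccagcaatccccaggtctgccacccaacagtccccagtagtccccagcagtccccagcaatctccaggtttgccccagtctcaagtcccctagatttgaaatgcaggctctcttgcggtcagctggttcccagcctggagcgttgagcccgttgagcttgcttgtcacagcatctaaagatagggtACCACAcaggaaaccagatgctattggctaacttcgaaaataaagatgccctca
The match begins 50 bases before the start in Gzma, 83 in Nkg7, 188 in Cst7 and 54 in Cx3cr1. A match describes the letters of the window and shows no binding, and the motifs and genes were again picked with the expression values known.

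Killer lectin-like receptors and other receptors shared with NK cells were lower in CD4 cells in 8 of 25 tested genes and higher in 0 (median -0.96), with 11 lower under the block. Over all tested genes 1.66% were called lower. Klrd1 (CD94), which pairs with NKG2 chains, measured 28.5, 21.2 and 21.7 CPM in CD4 against 102, 96.3 and 147 CPM in CD8 libraries (-2.27, SE 0.26, adjusted p = 0.000484). Its partners Klrc1 (-1.66, SE 0.40, adjusted p = 0.036) and Klrc2 (-1.41, SE 0.25, adjusted p = 0.00705) and the activating receptor Klrk1 (NKG2D; -1.88, SE 0.31, adjusted p = 0.00433) were lower too. Cd160, a receptor of cytotoxic lymphocytes, measured 6.80, 5.07 and 4.00 CPM against 20.1, 20.01 and 36.9 CPM (-2.27, SE 0.28, adjusted p = 0.000798). Klra6, a Ly49 receptor, measured 0.166, 0.461 and 0 CPM against 9.77, 4.25 and 10.5 CPM (-5.16, SE 0.65, adjusted p = 0.001). Klre1 measured 4.23, 4.92 and 2.42 CPM against 33.1, 11.2 and 70.3 CPM (-3.30, SE 0.63, adjusted p = 0.0116), a call that was absent without CD4 replicate 1 or 3 and with limma-voom (adjusted p = 0.0959). Ly49 genes are close copies of each other, and counts may be split uncertainly among them. The NK cell receptor Ncr1 measured 3.26 to 7.05 CPM in CD4 and 2.09 to 3.26 CPM in CD8 libraries and was not called (0.89, adjusted p = 0.42).

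Homing receptors were called in both directions. Of 23 genes 4 were higher and 4 lower in CD4 cells (8 and 7 with the block), against 2.76% and 1.66% over all tested genes. The higher ones were Ccr4, Ccr8 and Ccr6, described above, and P2rx7, an ATP-gated channel of tissue T cells, which measured 102, 92.9 and 89.0 CPM in CD4 against 29.6, 25.1 and 39.8 CPM in CD8 libraries (1.58, SE 0.17, adjusted p = 0.000417). Cx3cr1, the fractalkine receptor of effector CD8 cells and of macrophages, measured 3.07, 2.92 and 2.33 CPM against 21.1, 12.2 and 26.5 CPM (-2.84, SE 0.38, adjusted p = 0.00148). S1pr5, an egress receptor of effector cells, averaged 0.861 ± 0.128 CPM in CD4 and 10.1 ± 5.63 CPM in CD8 libraries (-3.53, SE 0.50, adjusted p = 0.00185), and Gpr18 was lower by a smaller margin (-0.63, SE 0.15, adjusted p = 0.039). The lymph node receptor Ccr7 (-0.81, adjusted p = 0.13), the egress receptor S1pr1 (0.42, adjusted p = 0.23) and the tissue receptor Cxcr6 (0.87, adjusted p = 0.11) were not called.

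Of 16 integrin genes 2 were higher and 2 lower (6 and 4 with the block), against 2.76% and 1.66% over all tested genes. Itgb3, the beta-3 chain, measured 104, 115 and 126.8 CPM in CD4 against 30.6, 26.3 and 23.8 CPM in CD8 libraries (2.10, SE 0.23, adjusted p = 0.000417), and its partner Itgav was higher at 136 ± 36.7 against 65.4 ± 2.15 CPM (1.06, SE 0.17, adjusted p = 0.00422). Itga4 averaged 573 ± 11.5 CPM in CD4 and 847 ± 186 CPM in CD8 libraries (-0.56, SE 0.13, adjusted p = 0.0329). Itgax, which encodes CD11c of dendritic cells and effector CD8 cells, measured 38.5, 19.0 and 17.3 CPM against 96.1, 55.2 and 137 CPM (-1.95, SE 0.39, adjusted p = 0.0139). The Itgax call was absent without CD4 replicate 2 or 3. Without CD4 replicate 2, and likewise without CD4 replicate 3, no integrin was called lower.

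Cytokine genes were higher in CD4 cells wherever they were called. Of 21 tested genes 10 were higher and 0 lower (median 1.45), and Il3, Il5 and Il9 were below the count filter. Besides Tnf, Il4, Areg, Il10, Il21, Il17a and Il22, these were Tnfsf11, Csf2 and Il2. Tnfsf11, the RANK ligand, measured 15.3, 10.2 and 20.2 CPM in CD4 against 0.606, 0.733 and 0.139 CPM in CD8 libraries (4.93, SE 0.54, adjusted p = 0.000417). Csf2, which encodes GM-CSF, was higher at 3.78 ± 0.219 against 0.493 ± 0.144 CPM (2.92, SE 0.51, adjusted p = 0.00652). Il2, the T cell growth factor, measured 5.14, 3.61 and 5.21 CPM against 1.55, 1.25 and 1.66 CPM (1.64, SE 0.36, adjusted p = 0.0249).

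Of 24 cytokine receptor genes 9 were higher and 0 lower (median 0.44; 13 and 3 with the block). Besides those above they included Il1r2, the decoy receptor for IL-1 (30.0 ± 10.6 against 3.89 ± 1.95 CPM; 2.94, SE 0.51, adjusted p = 0.00651), and Tnfrsf25, the receptor of TL1A (11.95 ± 2.63 against 1.94 ± 0.770 CPM; 2.61, SE 0.43, adjusted p = 0.00436). Leaving out CD4 replicate 3 left 5 called genes of this list. Among 21 genes of the IL-7, common gamma chain and STAT5 pathway 5 were higher and 1 lower (8 and 3 with the block). The 5 fell to 3 without CD4 replicate 3, CD8 replicate 1 or CD8 replicate 2, and the 1 to 0 without CD4 replicate 1 or CD8 replicate 3. Socs2, a feedback inhibitor induced by STAT5, measured 19.4, 24.4 and 23.6 CPM in CD4 against 4.11, 2.57 and 4.16 CPM in CD8 libraries (2.63, SE 0.21, adjusted p = 4.06e-05). Il9r was higher at 5.73 ± 0.300 against 0.764 ± 0.434 CPM (2.89, SE 0.42, adjusted p = 0.00211), and the STAT5 target Cish at 94.7 ± 38.8 against 32.5 ± 13.0 CPM (1.54, SE 0.33, adjusted p = 0.0212). The kinase gene Jak1 was lower (-0.41, SE 0.08, adjusted p = 0.015). Il2rg (0.30, adjusted p = 0.25), Stat5a (0.22, adjusted p = 0.55) and Bcl2 (-0.62, adjusted p = 0.28) were not called, and Il7r itself differed by 0.07.

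Of 20 genes induced by T cell receptor stimulation 6 were higher and 2 lower (11 and 4 with the block). Tnfrsf4 (OX40), a costimulatory receptor, measured 9.37, 7.91 and 21.3 CPM in CD4 against 0.876, 1.61 and 1.25 CPM in CD8 libraries (3.36, SE 0.46, adjusted p = 0.00166). Nfkbid, a nuclear NF-kappa-B regulator, was higher at 127.4 ± 8.75 against 72.3 ± 6.55 CPM (0.82, SE 0.11, adjusted p = 0.00124). Myc, a factor of growth and division, measured 43.3, 48.0 and 42.5 CPM against 107, 109 and 121 CPM (-1.33, SE 0.19, adjusted p = 0.00211). The paralogous nuclear receptor genes Nr4a3 and Nr4a2 differed in opposite directions, with Nr4a3 at 262 ± 60.5 against 111 ± 20.5 CPM (1.24, SE 0.22, adjusted p = 0.00668) and Nr4a2 at 119 ± 13.6 against 243 ± 14.7 CPM (-1.04, SE 0.22, adjusted p = 0.0212). The third member Nr4a1 was not called (0.48, adjusted p = 0.11), nor were the early response genes Egr1 (0.51, adjusted p = 0.12), Egr2 (0.39, adjusted p = 0.16) and Fos (-0.26, adjusted p = 0.48). Genes induced by tissue digestion and stress, which share such early response genes, summed to 10169, 10595 and 12127 CPM in CD4 and 9395, 9392 and 9166 CPM in CD8 libraries (two-sided exact permutation p = 0.1), and their part in these calls was not tested. None of the 18 stress genes was called (edgeR; 5 higher and 1 lower with the block), and the most abundant, the chaperone gene Dnaja1, stood at 0.28 (adjusted p = 0.333).

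The signalling machinery under the T cell receptor gave 2 higher and 0 lower of 29 genes (median 0.00), a share of calls close to that over all tested genes, and 7 and 7 with the block. The called genes were Rasgrp1, an activator of Ras (442, 479.8 and 444 against 289, 306 and 289 CPM; 0.63, SE 0.12, adjusted p = 0.012), and the negative regulator Cd5 (197 ± 37.5 against 98.3 ± 24.6 CPM; 1.00, SE 0.25, adjusted p = 0.0429). Without CD8 replicate 1 neither was called, and the Cd5 call was also absent without CD4 replicate 1, 2 or 3 or CD8 replicate 2. Of 22 inhibitory receptor and exhaustion genes 5 were higher and 3 lower (10 and 4 with the block, 3 and 1 without CD4 replicate 1). Ctla4 and Cd200r1, a receptor for CD200 (15.4 ± 3.47 against 3.48 ± 0.772 CPM; 2.14, SE 0.36, adjusted p = 0.00527), were higher, while Havcr2 (TIM-3) was lower (-1.11, SE 0.26, adjusted p = 0.034). Lag3 (-0.08, adjusted p = 0.95) and Tigit (0.83, adjusted p = 0.36) were not called.

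Genes of naive, memory and resting cells were mostly not called by the main fit. Of 24 genes 2 were higher and 1 lower (median -0.10), against 2.76% and 1.66% over all tested genes, and the block called 6 and 9. Cd44, an adhesion receptor of antigen-experienced cells, measured 492, 345 and 614 CPM in CD4 against 245, 167 and 219 CPM in CD8 libraries (1.202, SE 0.19, adjusted p = 0.00415). The neighbouring paralogs Ly6c1 and Ly6c2 on chromosome 15 differed in opposite directions. Ly6c1 measured 5.22, 10.1 and 4.93 CPM in CD4 against 0.539, 0.220 and 0.208 CPM in CD8 libraries (4.35, SE 0.68, adjusted p = 0.00348). Ly6c2 measured 32.6, 25.7 and 23.9 CPM against 111, 80.8 and 179 CPM (-2.17, SE 0.33, adjusted p = 0.00282). Counts of such near-identical genes may be assigned uncertainly.

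Tissue residency genes gave 1 higher (P2rx7) and 0 lower of 18 (7 and 3 with the block, 4 and 0 without CD8 replicate 3), against 2.76% and 1.66% over all tested genes. Cd69 (0.20, adjusted p = 0.74), Itgae (-1.27, adjusted p = 0.24) and Zfp683 (0.30, adjusted p = 0.78) were not called. Of 24 interferon-stimulated genes 1 was higher and 2 lower (7 and 3 with the block), beside the same shares of 2.76% and 1.66%. Outside the Ly6c pair the call was Ifit3 (3.90 ± 0.752 against 8.96 ± 1.31 CPM; -1.20, SE 0.26, adjusted p = 0.0244), which was absent without CD4 replicate 1 or 3, without CD8 replicate 1 or 3 and with limma-voom. None of 17 MHC class I pathway genes was called by edgeR (0 higher and 2 lower with the block), and all 17 lay between -0.61 and 0.14. B2m, the light chain of MHC class I, measured 3383, 3133 and 3538 CPM in CD4 and 3309, 2439.8 and 3399.5 CPM in CD8 libraries (0.14, SE 0.13, adjusted p = 0.665).

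**Figure D3:**
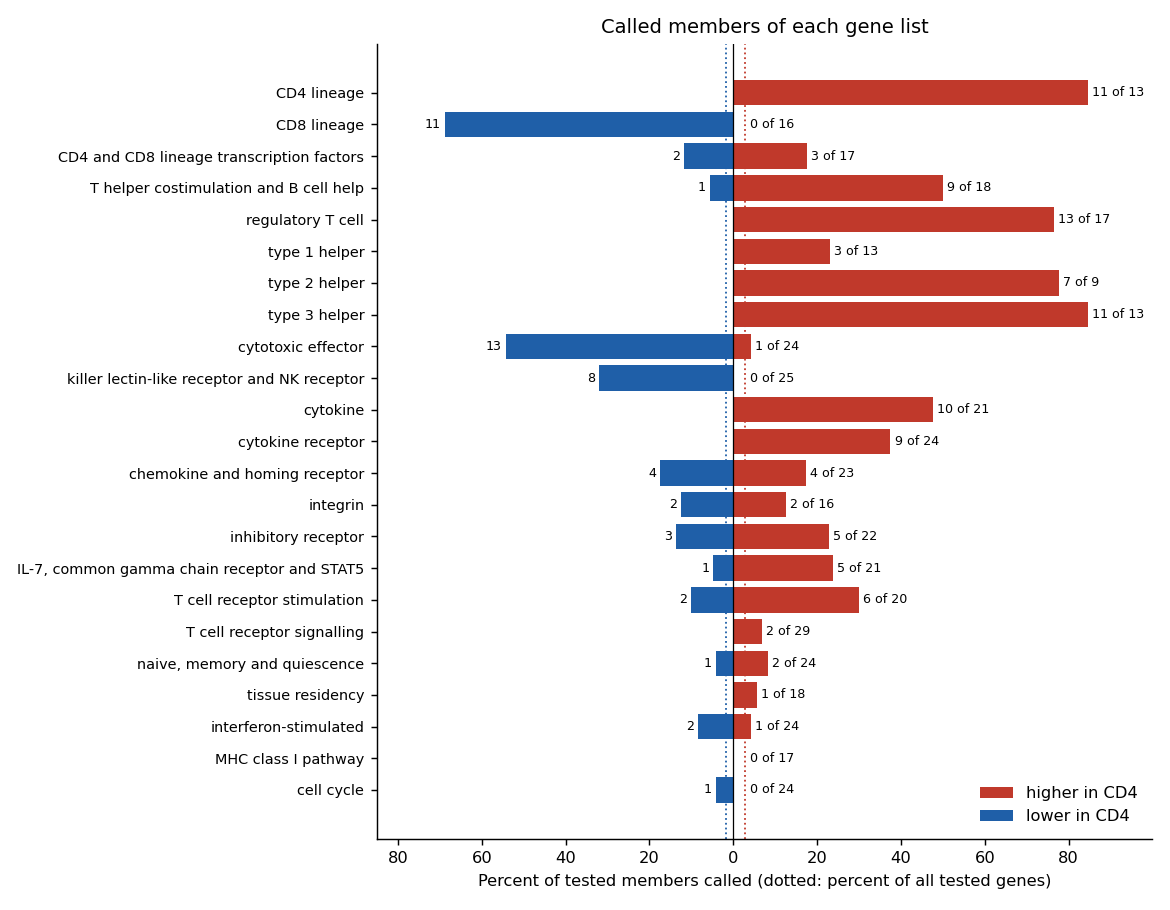
Bars give, for each gene list, the percentage of tested members called higher (red, to the right) or lower in CD4 cells (blue, to the left), with counts at the bar ends and dotted lines at the shares over all tested genes (2.76% and 1.66%). Long red bars belong to the CD4 lineage, regulatory, type 2 and type 3 lists, and long blue bars to the CD8 lineage and cytotoxic lists, while no member of the MHC class I pathway was called.

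Antigen receptor variable segments were called in both directions. Of 56 tested T cell receptor alpha segments 3 were higher and 0 lower in CD4 cells (against 2.76% higher over all tested genes), namely Trav9-1 (2.66, SE 0.49, adjusted p = 0.00866), Trav10n (1.98, SE 0.44, adjusted p = 0.026) and Trav4-4-dv10 (1.52, SE 0.38, adjusted p = 0.0434). Of 21 beta segments 0 were higher and 2 lower (against 1.66% lower over all tested genes), namely Trbv14 (-1.96, SE 0.41, adjusted p = 0.0173) and Trbv12-1 (-1.93, SE 0.49, adjusted p = 0.0467). These segments were singled out after their values were seen. Close copies of segments share reads, so single segments are uncertain.

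Among the 10 largest increases and decreases at an average log2 CPM of at least 3 were genes outside the lists. Ermn (ENSMUSG00000026830, chromosome 2, 58045113 to 58052864), which encodes the cytoskeletal protein ermin, measured 29.8, 18.1 and 63.1 CPM in CD4 against 0.337, 0 and 0.346 CPM in CD8 libraries (7.26, SE 0.98, adjusted p = 0.00144). Limma-voom gave Ermn an adjusted p of 0.0858. Bend4 (ENSMUSG00000092060, chromosome 5, 67392147 to 67428310), a BEN domain protein gene, measured 12.8, 5.07 and 6.61 CPM against 126.9, 138 and 122 CPM (-3.98, SE 0.27, adjusted p = 1.45e-05). Adgrg5, an adhesion G protein-coupled receptor, measured 6.96, 6.30 and 5.68 CPM against 72.2, 59.4 and 91.8 CPM (-3.56, SE 0.25, adjusted p = 1.87e-05). Nrp2, a neuropilin, measured 2.49, 1.77 and 1.30 CPM against 12.9, 17.1 and 23.01 CPM (-3.24, SE 0.34, adjusted p = 0.000337), whereas its paralog Nrp1, a marker of thymic regulatory cells and plasmacytoid dendritic cells, was higher in CD4 cells (65.9, 42.9 and 88.6 against 31.0, 17.5 and 17.4 CPM; 1.58, SE 0.28, adjusted p = 0.00652). The 2 neuropilins thus stood on opposite sides.

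RNA of other cell types was present in both sorts. Plasmacytoid dendritic cell genes (25) summed to 2818, 1445 and 1778 CPM in CD4 and 2189, 1131 and 1211 CPM in CD8 libraries (two-sided exact permutation p = 0.5, without pairing). The sum was higher in CD4 within each pair of same-numbered libraries, with replicate 1 highest in each lineage. Of the 25 genes 1, Nrp1, was called (12 higher and 1 lower with the block). Siglech, which defines these cells, measured 411, 188 and 224 CPM in CD4 and 289, 102 and 141 CPM in CD8 libraries (0.63, adjusted p = 0.664). The part of plasmacytoid dendritic cells in the genes called higher in CD4 cells was not tested. Genes of conventional dendritic cells, a list of 11 written after the data were seen, summed to 216, 121 and 102 CPM in CD4 and 794, 341 and 216 CPM in CD8 libraries (two-sided exact permutation p = 0.1). In that list Itgax and Ifi205 (-4.03, SE 1.03, adjusted p = 0.0492) were called lower in CD4 cells, 7 were lower with the block and 8 without CD8 replicate 3. Xcr1, a receptor of cross-presenting dendritic cells, measured 4.14, 4.22 and 4.00 CPM in CD4 and 92.1, 34.8 and 4.50 CPM in CD8 libraries and was not called (-3.41, adjusted p = 0.061). Cells of this kind can carry CD8 alpha at the surface, and their part in the genes called lower in CD4 cells was not tested.

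Macrophage and myeloid genes (24) summed to 2567, 1652 and 1003 CPM in CD4 and 3828, 1908 and 1086 CPM in CD8 libraries (two-sided exact permutation p = 0.6), higher in CD8 within each pair of same-numbered libraries, and 2 of 24, Cx3cr1 and Itgax, were called lower (3 of 20 tested with the block). Antigen presentation genes made up most of these sums, with the invariant chain gene Cd74 at 344 to 1322 CPM and H2-Aa at 227 to 1028 CPM. Lyz2, a lysozyme gene of myeloid cells, was at 14.6 to 54.3 CPM and the macrophage complement gene C1qa at 0.372 to 1.08 CPM. The part of myeloid cells in the genes called lower in CD4 cells was not tested. B cell genes (16) summed to 310.04 to 492 CPM in CD4 and 283 to 542 CPM in CD8 libraries with no call, and Ighm stood at 0.05 (adjusted p = 0.949). NK and innate lymphoid genes (14) summed to 781 ± 139 against 574 ± 66.5 CPM with no overlap (two-sided exact permutation p = 0.1). Of these 5 were called higher and 2 lower, among them Il1rl1, Gata3, Areg, Il18r1 and Eomes, which other lists hold too. Il18r1, a gene of the type 1 list, averaged 350 CPM in CD4 and 178 CPM in CD8 libraries. It thus made up most of the difference between the 2 sums. The part of NK and innate lymphoid cells in the results was not tested. Gamma-delta and innate-like T cell genes (12) summed to 195 ± 15.7 against 65.4 ± 5.95 CPM (two-sided exact permutation p = 0.1), with 2 of 10 tested higher. These were Maf and Zbtb16, the factor PLZF of NKT cells (6.96, 10.1 and 3.35 against 0.741, 0.220 and 0.970 CPM; 3.38, SE 0.53, adjusted p = 0.0035). Maf, which the helper list holds too, averaged 133 CPM in CD4 and 11.6 CPM in CD8 libraries. It thus made up most of the difference between the 2 sums. The gamma-delta receptor gene Trdc measured 1.12 to 4.31 CPM in CD4 and 2.42 to 4.25 CPM in CD8 libraries (-0.57, adjusted p = 0.6), and Tcrg-C1 stood at 0.03 (adjusted p = 0.99). The part of innate-like cells in the type 3 and type 2 results was not tested.

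Kidney tubule genes (14) summed to 87.2 to 152 CPM in CD4 and 324, 335 and 23.1 CPM in CD8 libraries, with no gene called by edgeR (2 lower with the block, 3 lower without CD8 replicate 3), and Umod ranged from 4.30 to 155 CPM. Pecam1 was called among 5 tested endothelial genes (134, 134 and 109.5 against 73.2, 86.1 and 54.3 CPM; 0.82, SE 0.20, adjusted p = 0.0392), a gene that naive T cells express as well. That call was absent without CD4 replicate 1, 2 or 3 and without CD8 replicate 1 or 3. Neutrophil genes (12) summed to 3.40 to 29.4 CPM over the 6 libraries, highest in CD8 replicate 2, with none called, and Csf3r, the most abundant over all 11 libraries, overlapped between the groups (-0.69, adjusted p = 0.692). Red cell and platelet genes (8) summed to 3.81, 3.99 and 2.51 CPM in CD4 and 4.45, 63.2 and 4.92 CPM in CD8 libraries, with no overlap (two-sided exact permutation p = 0.1) and none of 3 tested genes called. The most abundant of them over all 11 libraries, Pf4, was at 0 to 0.461 CPM in these 6 (-0.21, adjusted p = 0.96). Cell cycle genes (24) were all below 0 (median -1.04), with 1 called lower, the mitotic cyclin Ccnb2 (3.23, 5.30 and 4.19 against 9.43, 8.80 and 20.5 CPM; -1.60, SE 0.37, adjusted p = 0.0291). The block called 10 lower, DESeq2 9 and the test with no filter on low counts 16, and 4 and 2 were lower without CD8 replicate 1 and 2. No gene of the list was called without CD4 replicate 1, CD4 replicate 3 or CD8 replicate 3, or with limma-voom.

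**Figure D4:**
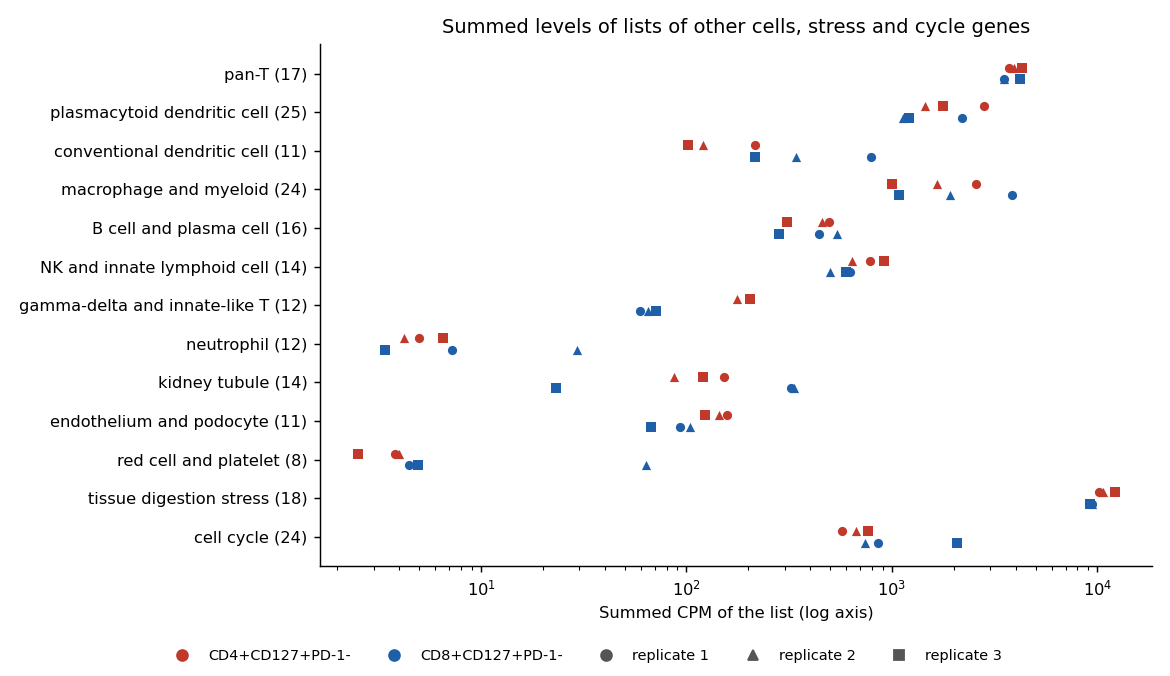
Each point is the summed CPM (log axis) of one gene list in one library, for CD4+CD127+PD-1- (red) and CD8+CD127+PD-1- cells (blue), with a different marker for each replicate number and the number of genes of each list in parentheses. Dendritic and myeloid sums were highest in replicate 1, and the cell cycle sum of CD8 replicate 3 (2076 CPM) lies to the right of the other 5.

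The lineage difference was then read in the CD127-PD-1+ cells, whose 5 libraries are not shared with the comparison above although the fit shares one estimate of spread. There 262 genes (1.60%) were called higher and 138 (0.843%) lower in CD4, together 400 (2.44%). Called in both states were 257 genes, 181 higher and 76 lower, and all 257 had the same direction, which is 35.5% of the 723 calls in CD127+PD-1- and 64.3% of the 400 calls in CD127-PD-1+ cells. Of the 723 genes 698 (96.5%) had the same sign in the other state. Cd40lg (5.32 in CD127-PD-1+ cells), Foxp3 (6.09), Ccr4 (5.96), Il23r (4.78), Eomes (-5.05), Crtam (-3.53), Gzma (-4.24) and Adgrg5 (-3.13) were called there in the same direction.

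**Figure D5:**
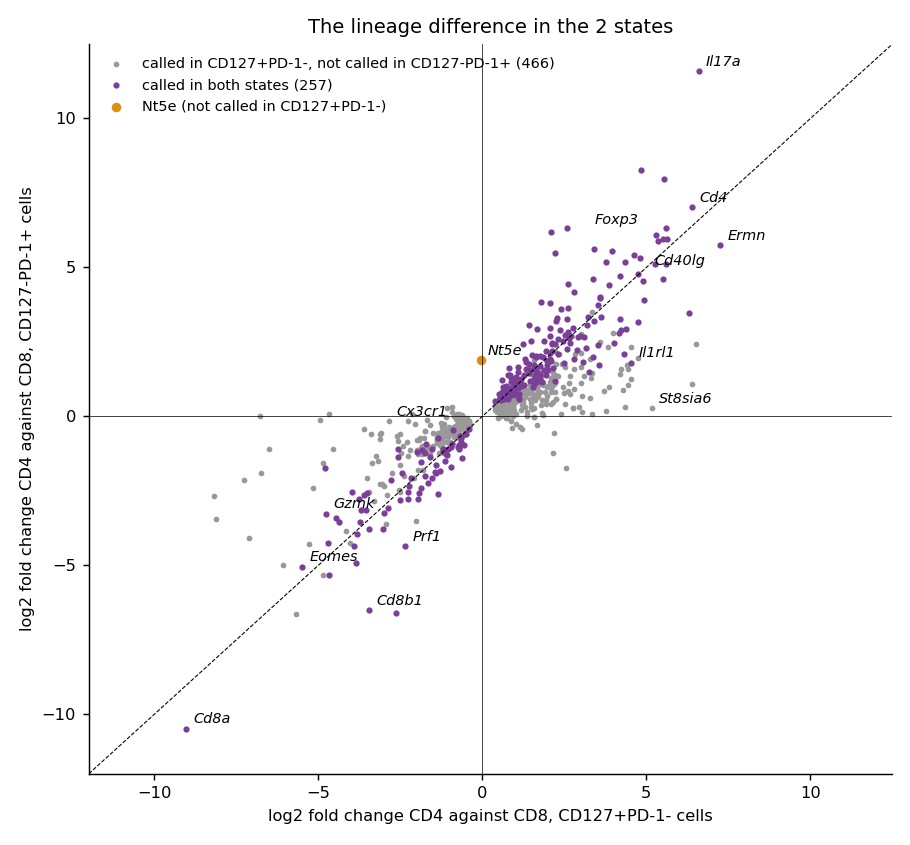
Each point is a gene called in CD127+PD-1- cells, placed by its log2 fold change of CD4 against CD8 in CD127+PD-1- (horizontal axis) and in CD127-PD-1+ cells (vertical axis), with the dashed line at equal values. Purple points are the 257 genes called in both states, grey points the 466 not called in CD127-PD-1+ cells, and the orange point is Nt5e, at -0.05 and 1.89.

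The test of the difference between the 2 contrasts called 1 gene at an adjusted p under 0.05 (0.00611% of tested genes), with 897 genes at an unadjusted p under 0.05. DESeq2 called 57. The gene was Nt5e (ENSMUSG00000032420, chromosome 9, 88327197 to 88372092), which encodes CD73, an enzyme that makes adenosine. Nt5e was not called in CD127+PD-1- cells (63.2, 63.6 and 86.1 CPM in CD4 against 73.9, 83.2 and 63.8 CPM in CD8 libraries; -0.05, SE 0.15, adjusted p = 0.905). In CD127-PD-1+ cells it averaged 65.7 CPM in CD4 and 17.7 CPM in CD8 (1.89, adjusted p = 0.000124), and the difference of the contrasts was -1.94 (adjusted p = 0.0406). The Nt5e call was absent without CD4 replicate 1 (adjusted p = 0.121), CD4 replicate 2 (0.228), CD8 replicate 1 (0.180) or CD8 replicate 2 (0.146), with differences of -1.87, -1.87, -1.94 and -1.85. Without CD4 replicate 1 the 1 gene called was Bend4 (adjusted p = 0.0367), and without each of the other three no gene was called.

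Several genes called in CD127+PD-1- cells had small values in the other state. St8sia6 averaged 11.4 CPM in CD4 and 9.37 CPM in CD8 CD127-PD-1+ cells (0.28, adjusted p = 0.92), against 5.15 in CD127+PD-1- cells, and the difference of 4.87 was not called (adjusted p = 0.313). Cx3cr1 averaged 74.3 and 83.1 CPM there (-0.16, adjusted p = 0.91), against -2.84, and the difference of -2.68 was not called (adjusted p = 0.312). Il1rl1 averaged 21.1 and 6.03 CPM there (1.80, adjusted p = 0.0142), a smaller value than 4.54 by 2.73 (adjusted p = 0.222). DESeq2, the alternative tool, called the difference between states for all 3 genes, with adjusted p-values of 0.0235 for St8sia6, 0.000227 for Cx3cr1 and 4.3e-05 for Il1rl1. For these genes the dependence of the lineage difference on the state thus rests on the choice of test.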

How the data were processed

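RNA from flow-sorted kidney T cells was sequenced as 75-base single reads after single primer isothermal amplification of 2 ng of total RNA, per the labels' protocols. The authors deposited a table of raw read counts for 46078 genes, made with STAR and featureCounts on GRCm38, per the submitters' processing notes. Tool versions, the annotation release and whether counting used strand were not given in the sources used here. Of its columns 11 matched labelled samples and 1 was not used. Coordinates came from GENCODE M21 (GRCm38; 45229 identifiers found) and promoters from RefSeq (GRCm38.p6).

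Counts of all 11 libraries were fitted in R 4.3.3 with edgeR 4.0.16 (filterByExpr, TMM scaling, 4 group means, quasi-likelihood test, Benjamini-Hochberg adjustment over 16365 tested genes, threshold 0.05). The procedure was tested on simulated counts drawn independently for each library, without the shared deviation of same-numbered libraries. CPM use TMM-scaled library sizes. Single sums were compared by two-sided exact permutation tests. Alternatives were DESeq2 1.42.0, limma-voom (limma 3.58.1), other filters, scaling and depth, subsets of libraries and a replicate block. The labels give both groups replicate numbers 1 to 3 but do not say whether a number marks a shared sort. Same-numbered libraries deviated together (correlations of deviations 0.208, 0.147 and 0.318). Counts from the fit with the replicate block are therefore given beside the main ones for the totals and for many lists, but not for all. The main fit and the permutation tests use no pairing.

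Named genes were the sort genes, the 10 largest called increases and decreases with no overlap and an average abundance of 3 or more in log2 CPM (without predicted genes, pseudogenes and receptor segments), and from each of 34 lists the 3 called members with the smallest p, or the most abundant member where none was called; other list members appear as examples. All 493 distinct list genes were in the table. The comparison, lists and rule were chosen with earlier results of these data known, and 1 list and 1 alternative were added after seeing the data. Some list members are not reported here by name.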

Additional observations from a re-analysis of the deposited data

Results flagged for a closer look

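The CD4 against CD8 difference of Nt5e (CD73) itself differed between the 2 states, by -1.94 on the log2 scale (edgeR quasi-likelihood interaction test, adjusted p = 0.0406). It was -0.05 in CD127+PD-1- cells and 1.89 in CD127-PD-1+ cells. The CD4 libraries averaged 71.0 CPM in CD127+PD-1- and 65.7 CPM in CD127-PD-1+ cells, and the CD8 libraries 73.6 and 17.7 CPM. The call was absent on leaving out CD4 replicate 1 (adjusted p = 0.121), CD4 replicate 2 (0.228), CD8 replicate 1 (0.180) or CD8 replicate 2 (0.146). The difference itself was -1.87, -1.87, -1.94 and -1.85 in these 4 runs. The call thus depended on each of these 4 libraries, while the size of the difference changed little.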

How the results depend on the processing

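The replicate block, fitted to the 6 libraries, gave 966 higher and 741 lower genes (404 and 295 by more than 2-fold), kept 703 of the 723 calls and all 63 calls among named genes, and changed no other call among named genes. DESeq2 called 661 genes higher and 531 lower (380 and 310 by more than 2-fold), and 57 in the test between states. With no filter on low counts 637 were higher and 578 lower (397 and 394 by more than 2-fold). Leaving out both replicate 1 libraries, an alternative added after seeing the data, gave 151 higher and 90 lower genes (142 and 83 by more than 2-fold). Leaving out single libraries gave 235 to 419 higher and 140 to 268 lower genes, 193 to 300 higher and 112 to 220 lower by more than 2-fold (lowest without CD4 replicate 3), and 0 to 1 in the test between states. No named gene reversed under any alternative run. Of the 63 called, limma-voom lost 6 and single left-out libraries lost 3 to 9 and leaving out both replicate 1 libraries 14. Where a group was left with 2 libraries, the fit assumed the spread of the other groups. Differences at levels near 1 CPM rest on few counts.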
